A study of Mus musculus with 4 samples.

Results

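The genes described here encode proteins that detect, signal and repair DNA double-strand breaks, and their transcripts were compared between mammary epithelial cells of MMTV-Cre mice and of wild-type littermates. A set of 34 genes was taken by name. For 30 of them the platform annotation gave at least 1 probe set that carries that symbol and no other, out of 22180 genes with such a probe set. Fanca has a probe set that names Zfp276 as well and was not used, and Xrcc2, Dclre1c and Rbbp8 were not analysed here. Atr had more than 1 probe set and was represented by the brighter, as the mean over the arrays ranks them.

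A double-strand break is rejoined by either of the main routes. Homologous recombination copies the lost sequence from the sister chromatid after the ends have been trimmed, and so works in S and G2 phase. Non-homologous end joining holds the ends together and ligates them in any phase of the cycle. The kinases ATM and ATR report the break to the checkpoint kinases CHEK1 and CHEK2. In mammary epithelium this machinery is best known through BRCA1 and BRCA2, whose inherited loss predisposes to breast cancer. The recombinase Cre cuts and rejoins DNA at loxP sites.

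All mice were congenic FVB/NJ and 4 weeks old. The first group carried MMTV-Cre, which places Cre under the promoter in the terminal repeat of mouse mammary tumour virus, and gave 2 arrays. The second group, wild-type littermates without the transgene, gave the other 2. The labels name no floxed allele, no founder line and no number of mice behind a sample. They call the samples biological replicates without saying how many animals each holds, so p-values measure the spread between these samples. Cells were freed from inguinal glands with collagenase and spun away from stroma, so a change in the mix of cells and a change per cell cannot be told apart in these values.

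Levels are log2 values after RMA, a method that corrects background, equalises the arrays and summarises probes, so a step of 1 is a 2-fold change in signal and a change common to most genes is lost. Signal was limited for several genes. The mean over the 4 arrays lay below 2.84, the median over all probe sets, in Brca1, Bard1, Palb2, Rad51c, Chek2 and Fancd2, and at or above it for the other 24 genes (52.6% of all genes reached it). Of the 13 mammary epithelial markers all lay above that median, with median levels from 7.91 to 8.16 per array. Wild-type replicate 1 stood apart through lymphocyte transcripts. The mean of 13 T and NK cell markers was 1.36 above its average there and between −0.48 and −0.44 in the other arrays, and that of 10 B cell markers was 0.63 against −0.24 to −0.15. Cd3g, the T and NK cell marker with the largest gap between the wild-type arrays, reached 6.63 in that array and no more than 2.71 elsewhere. The rise was not shared by every marker. Of the 13, 11 were highest in wild-type replicate 1. Zap70 and Klrb1c were highest in MMTV-Cre replicate 1, and Klrb1c was lowest in wild-type replicate 1, at 2.44. Nkg7 differed by 0.11 between the wild-type arrays. The part of lymphocytes in the values below was not tested. Differences are also given without wild-type replicate 1 for several genes.

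No break repair gene passed the threshold. By limma with Benjamini-Hochberg adjustment over all 22180 genes, 0 of 30 were called at an adjusted p under 0.05 (0% of all genes), and the smallest adjusted p was 0.963. The unadjusted p was under 0.05 in 1 of them, Lig4 (3.33%, against 4.56% of all genes). Differences, MMTV-Cre minus wild-type, were above 0 in 13 genes and below 0 in 17 (49.6% and 50.4% of all genes). Their median was −0.05, beside −0.00 over all genes, and they ran from −0.48 to 0.44. The arrays of the groups did not overlap in 13 genes (43.3%, against 33% of all genes). Of these, 6 lay higher in MMTV-Cre and 7 lower (16.6% and 16.3% of all genes). These shares were not tested against the background. Leaving out 1 array moved the difference by more than 1.5 times, or turned its sign, in 26 of the 30 genes; Xrcc5, Lig4, Rnf8 and Topbp1 were the other 4. The sign turned in 14 genes. The same counts were not made over all genes, so they cannot be read as particular to the repair genes.

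**Figure D1:**
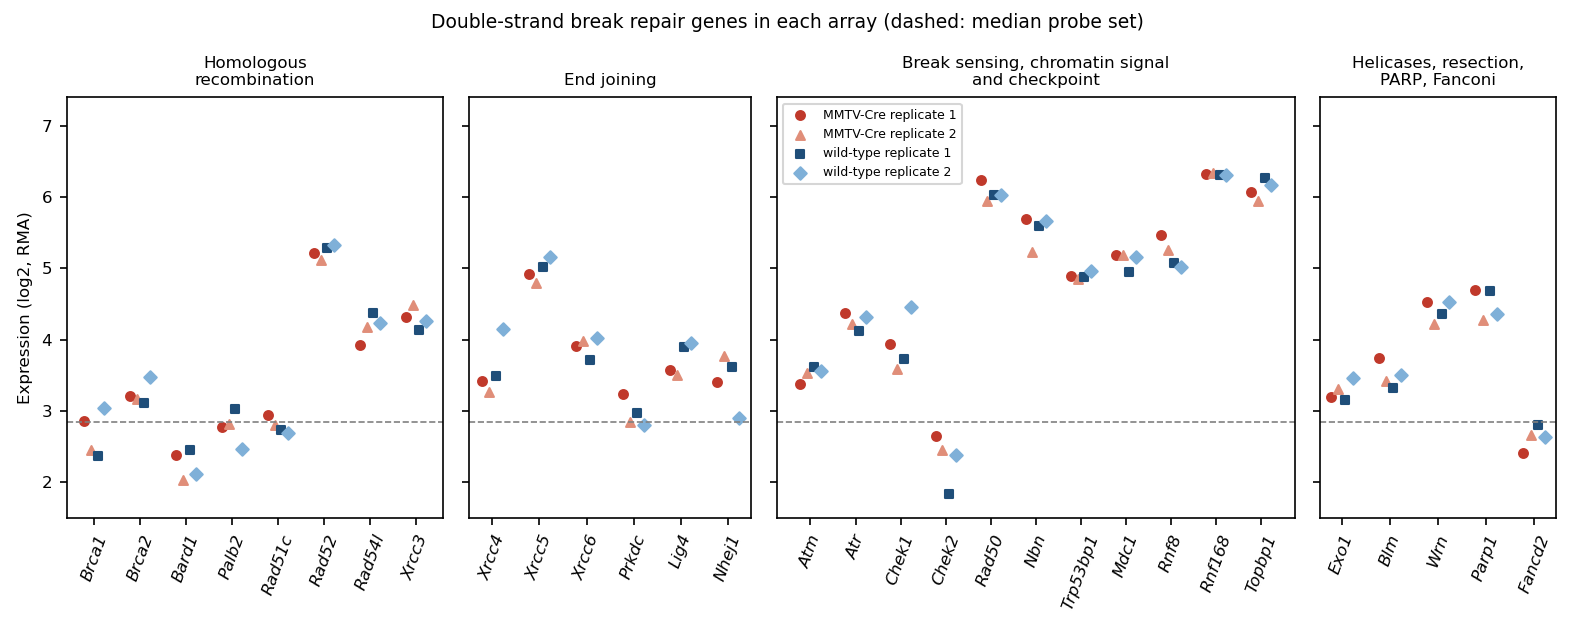
Log2 level of each of the 30 measured genes in each of the 4 arrays, by role; the dashed line is the median over all probe sets, 2.84. Both MMTV-Cre arrays lie higher in 6 genes, Rnf8 among them, and lower in 7, Lig4 and Xrcc4 among them (16.6% and 16.3% of all genes). Brca1, Chek1, Xrcc4 and Nhej1 are spread mainly by the wild-type arrays.

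The intervals say how large a change could have gone unseen. The 95% interval of limma lay inside −1 to 1, a 2-fold change in either direction, for 29 of the 30 genes (97% of all genes), and Xrcc4, with a lower bound of −1.06, was the exception. The median half-width was 0.37, against 0.35 over all genes, and ranged from 0.29 to 0.66. RMA compresses changes of dim genes, so these bounds hold for the array signal.

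**Figure D2:**
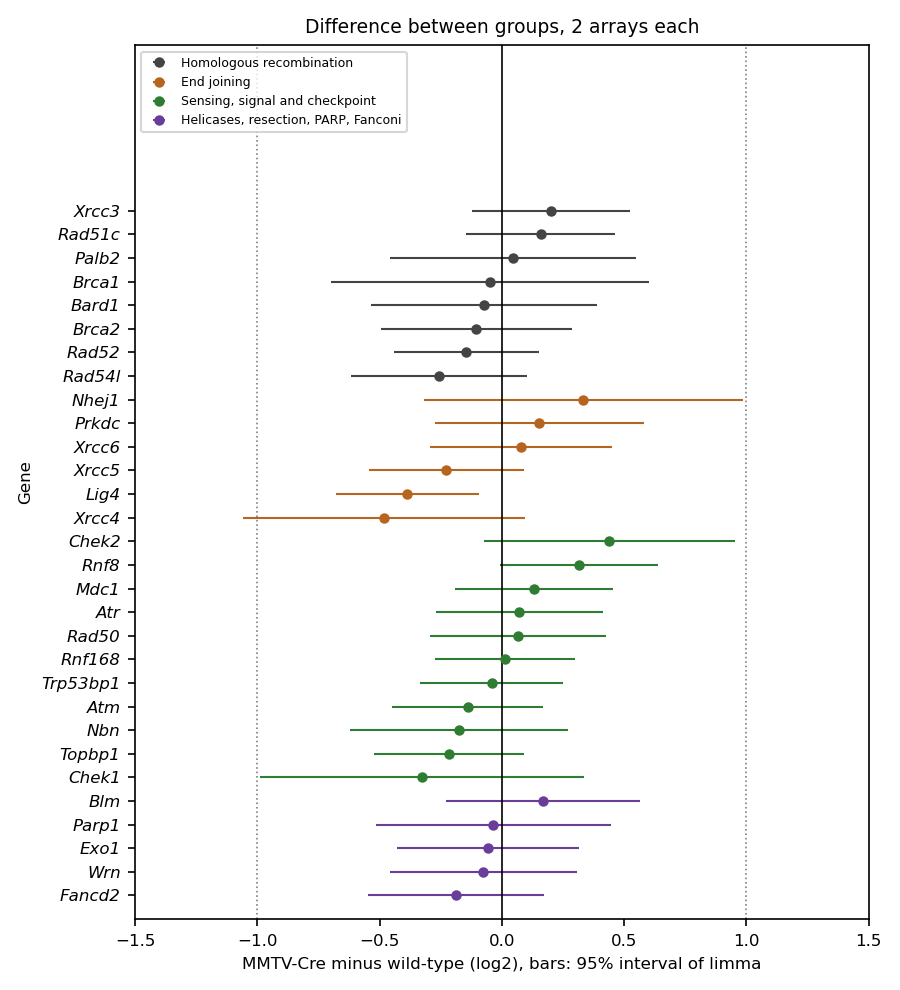
Difference in log2 level, MMTV-Cre minus wild-type, with the 95% interval of limma for each of the 30 genes, 2 arrays per group; dotted lines mark −1 and 1. The interval of Lig4 (−0.68 to −0.09) is the one that does not reach 0.

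Transcription of many recombination and checkpoint genes is known to be tied to S phase through E2F factors, and the windows below are shown because they hold letters that resemble an E2F site. Promoter windows (250 bases before to 50 after a start site, RefSeq, GRCm38.p6) were found for 24 of the 30 genes; Prkdc, Rad50, Nbn, Exo1, Wrn and Fancd2 had no entry. On both strands, TTTCCCGC, TTTGGCGC, TTTCGCGC or TTTGCCGC occurred in 7 of the 24, and in 3.26% of the 16990 genes on the arrays with a window. Each line gives 30 bases on the strand of the gene, 5′ to 3′, with the match in capitals; the match reads as GCGGGAAA or GCGCGAAA where it lies on the opposite strand.
Brca2 (chr5:150522442-150522471, plus strand): tttaggccacaGCGGGAAAcagacacacac
Bard1 (chr1:71103163-71103192, minus strand): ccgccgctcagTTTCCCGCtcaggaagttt
Rad51c (chr11:87404477-87404506, minus strand): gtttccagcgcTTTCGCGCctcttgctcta
Rad51c (chr11:87404941-87404970, minus strand): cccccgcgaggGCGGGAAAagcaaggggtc
Xrcc6 (chr15:82016312-82016341, plus strand): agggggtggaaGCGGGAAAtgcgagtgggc
Chek2 (chr5:110839820-110839849, plus strand): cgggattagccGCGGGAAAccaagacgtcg
Mdc1 (chr17:35841471-35841500, plus strand): tcttcagcctgTTTCCCGCcggtagccgca
Topbp1 (chr9:103305187-103305216, plus strand): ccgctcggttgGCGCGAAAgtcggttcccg

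The match lay 168 bases before the start site in Brca2, 209 in Bard1, 152 in Chek2, 129 in Topbp1, 46 in Xrcc6 and 16 in Mdc1. Rad51c has a window for each of 2 start sites and a match in both, of which the upstream-site match, the one reading GCGGGAAA, overlaps a GC box. The windows of the repair genes were also richer in CG, with a median of 23 CG pairs against 13 for all genes on the arrays. Of the other motifs searched on both strands, the GC box GGGCGG was found for 19 of the 24 genes (49.5% of genes on the arrays), CCAAT for 11 (41.6%), an NRF1-like palindrome for 4 (7.24%) and TATAAA for 2 (14.3%). The ETS-like core CCGGAAGT was found for 3 (5.62%), the CRE-like TGACGTCA or TGACGTAA for 3 (3.29%), TTTGAA for 2 (17.8%), ACTACAA for 1 (4.11%) and AAGATGGC for 0 (3.64%). None of these shares was tested. Of the 7 genes with E2F-like letters, 4 had differences above 0 and 3 below, with Chek2 at 0.44 and Topbp1 at −0.22 as the extremes.

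Homologous recombination was represented by 8 genes, of which 3 had differences above 0, 5 below, and 0 reached an unadjusted p under 0.05. Their median difference was −0.06. Both MMTV-Cre arrays lay above both wild-type arrays in 2 and below them in 2 (16.6% and 16.3% of all genes). Brca1, which promotes the trimming of broken ends, measured 2.86 and 2.45 in the MMTV-Cre arrays against 2.37 and 3.05 in the wild-type arrays. The 2 wild-type arrays thus enclosed both MMTV-Cre arrays, and the difference of −0.05 (95% interval −0.70 to 0.60) was far smaller than the gap of 0.68 between the wild-type replicates. It became −0.39 without wild-type replicate 1 and 0.29 without wild-type replicate 2. Brca2, which acts on the trimmed single-stranded DNA, measured 3.21 and 3.17 in the MMTV-Cre arrays against 3.12 and 3.47 in the wild-type arrays. Its groups overlapped, with a difference of −0.10 (−0.49 to 0.29). The BRCA1 partner Bard1 and Palb2, the bridge between BRCA1 and BRCA2, differed by −0.07 and 0.04, each with a wild-type gap larger than that (0.34 and 0.56). Without wild-type replicate 1 the difference of Palb2 was 0.33.

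Later recombination factors had smaller gaps between the wild-type arrays, from 0.04 to 0.14. Rad54l, a motor protein that remodels the recombining duplex, measured 3.92 and 4.18 in the MMTV-Cre arrays against 4.38 and 4.24 in the wild-type arrays. Both MMTV-Cre values were the lower ones, but by 0.06 at the nearest, and the difference of −0.26 (−0.62 to 0.10) did not pass and was −0.13 without MMTV-Cre replicate 1. A further probe set that lists Rad54l beside Lrrc41 differed by 0.02 with overlapping groups, and is not counted among the 30. Xrcc3 and Rad51c, whose products form the CX3 complex, lay the other way. Xrcc3 measured 4.31 and 4.48 in the MMTV-Cre arrays against 4.14 and 4.26 in the wild-type arrays, a difference of 0.20 (−0.12 to 0.52). Rad51c measured 2.94 and 2.80 against 2.73 and 2.69, a difference of 0.16 (−0.15 to 0.46), close to the dim end. For Rad52, a single-strand annealing protein, both MMTV-Cre arrays lay lower and the difference was −0.15 (−0.44 to 0.15).

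End joining held the member with the smallest p. Of its 6 measured genes, 3 had differences below 0, and in each of these 3 both MMTV-Cre arrays lay below both wild-type arrays. The other 3 were above 0 with overlapping groups. Over all genes, 11184 had differences below 0, and 3618 of them (16.3% of all genes) were separated in that direction. Lig4, the ligase that seals the break, measured 3.57 and 3.50 in the MMTV-Cre arrays against 3.89 and 3.95 in the wild-type arrays. The replicates of each group lay within 0.07 of each other, and the groups were 0.39 apart (difference −0.39, 95% interval −0.68 to −0.09, unadjusted p = 0.0183 and adjusted p = 0.963 by limma over all genes). Leaving out each array in turn gave −0.42 to −0.35, and −0.42 without wild-type replicate 1. Xrcc4, the scaffold that LIG4 binds, measured 3.42 and 3.26 in the MMTV-Cre arrays against 3.49 and 4.15 in the wild-type arrays. It too was lower in both MMTV-Cre arrays, but by 0.07 at the nearest, since wild-type replicate 2 alone was high. Its difference was −0.48 (−1.06 to 0.10), −0.15 without wild-type replicate 2 and −0.81 without wild-type replicate 1.

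The promoter windows of Lig4 and Xrcc4 are printed because the products of both work in 1 complex, both genes had their MMTV-Cre arrays below their wild-type arrays, and each shares its promoter region with a gene transcribed the other way. Capitals mark an NRF1-like palindrome, CCGGAAGT (an ETS-like core) and GGGCGG on either strand. The Lig4 window holds 1 NRF1-like and 1 ETS-like match and no GC box, and the Xrcc4 window holds 3 GC boxes and neither of the other motifs. Lig4 has a second start site with a window of its own, not printed, that holds 2 NRF1-like matches and 2 GC boxes.
Lig4 (chr8:9977631-9977930, minus strand): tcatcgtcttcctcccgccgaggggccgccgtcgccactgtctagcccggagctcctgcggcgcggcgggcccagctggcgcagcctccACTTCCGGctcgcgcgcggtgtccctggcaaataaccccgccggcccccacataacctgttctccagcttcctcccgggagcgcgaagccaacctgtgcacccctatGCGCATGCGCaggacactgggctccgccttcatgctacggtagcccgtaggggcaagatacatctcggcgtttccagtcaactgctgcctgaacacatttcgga
Xrcc4 (chr13:90089559-90089858, minus strand): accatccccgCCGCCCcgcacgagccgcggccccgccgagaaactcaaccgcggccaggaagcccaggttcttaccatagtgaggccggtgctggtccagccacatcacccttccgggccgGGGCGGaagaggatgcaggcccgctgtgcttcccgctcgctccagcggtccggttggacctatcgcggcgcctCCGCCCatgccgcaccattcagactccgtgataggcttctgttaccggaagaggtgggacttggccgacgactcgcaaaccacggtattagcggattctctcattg

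The gene that starts 37 bases from Lig4 in the opposite direction is Abhd13, and Tmem167 starts 59 bases from Xrcc4. Abhd13 measured 4.14 and 4.33 in the MMTV-Cre arrays against 4.32 and 4.23 in the wild-type arrays, a difference of −0.04 (−0.37 to 0.28) with overlapping groups. Tmem167 measured 2.51 and 2.44 against 2.60 and 2.58, a difference of −0.11 (−0.40 to 0.18) at the dim end. In all, 10 of the 24 genes had such a divergent neighbour within 1000 bases. How many of all genes on the arrays have one was not counted. Of the neighbours of the repair genes 9 were measured, with differences from −0.16 (Zfyve21, beside Xrcc3) to 0.43. Npat, beside Atm, and Nbr1, beside Brca1, differed by 0.07 and 0.03, and Desi1, beside Xrcc6, by 0.22. The highest was 1700065D16Rik, which starts 80 bases from Atr, at 2.06 and 1.66 in the MMTV-Cre arrays against 1.42 and 1.43 in the wild-type arrays. Both MMTV-Cre arrays lay higher, at a dim level (difference 0.43, 0.03 to 0.84, unadjusted p = 0.0410 by limma). These neighbours were examined after the values of Lig4 and Xrcc4 were seen, and differences between a gene and its neighbour were not tested.

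The KU proteins XRCC5 and XRCC6, which bind the broken ends as a heterodimer, had differences on either side of 0. Xrcc5 measured 4.93 and 4.79 in the MMTV-Cre arrays against 5.02 and 5.15 in the wild-type arrays. Both MMTV-Cre arrays were lower, by 0.09 at the nearest, with a difference of −0.23 (−0.55 to 0.09). Xrcc6 stood at 3.91 and 3.98 in MMTV-Cre, between the wild-type values of 3.71 and 4.03, a difference of 0.08 (−0.29 to 0.45). Prkdc, the kinase that KU recruits, measured 3.24 and 2.85 in the MMTV-Cre arrays against 2.97 and 2.81 in the wild-type arrays, a difference of 0.15 (−0.27 to 0.58) with overlap. Nhej1, whose product XLF aligns the ends with XRCC4, had a difference of 0.33 (−0.32 to 0.99), and its wild-type arrays, at 3.61 and 2.90, were 0.71 apart. The difference was 0.69 without wild-type replicate 1 and −0.02 without wild-type replicate 2. Wild-type replicate 2 was thus the highest array for Xrcc4 and the lowest for Nhej1.

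Break sensing, chromatin signalling and checkpoint genes numbered 11, with 6 differences above 0, 5 below and a median of 0.01. Both MMTV-Cre arrays lay above both wild-type arrays in 4 and below them in 2 (16.6% and 16.3% of all genes). Rnf8, a ubiquitin ligase that marks chromatin at the break, measured 5.46 and 5.26 in the MMTV-Cre arrays against 5.08 and 5.02 in the wild-type arrays. Both MMTV-Cre arrays were higher, and the difference of 0.31 (−0.01 to 0.64, unadjusted p = 0.0552 by limma) did not pass. A further probe set that lists Rnf8 beside Cmtr1 and Ccdc167 differed by 0.14 with overlapping groups, and is not counted among the 30. Rnf168, the ligase that extends the mark made by RNF8, was nearly level, between 6.31 and 6.34 in all 4 arrays. Mdc1, the adaptor that brings RNF8 to the break, differed by 0.13 (−0.19 to 0.46), and Trp53bp1, which reads the RNF168 mark, by −0.04 (−0.34 to 0.25). A probe set that lists Trp53bp1 beside Tubgcp4 differed by −0.09, also with overlapping groups.

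Of the apical kinases, Atm measured 3.38 and 3.53 in the MMTV-Cre arrays against 3.62 and 3.57 in the wild-type arrays. Both MMTV-Cre arrays were lower, by 0.04 where they came nearest, with a difference of −0.14 (−0.45 to 0.17). Atr gave different pictures by probe set. Its brighter probe set measured 4.37 and 4.21 in the MMTV-Cre arrays against 4.12 and 4.32 in the wild-type arrays, a difference of 0.07 (−0.27 to 0.41) with overlap. The dimmer measured 3.59 and 3.57 against 3.22 and 3.21, a difference of 0.36 (0.08 to 0.65, unadjusted p = 0.0212 by limma over all probe sets with 1 symbol). The sign was the same in both probe sets, and the separation was seen in the dimmer alone. Topbp1, which switches ATR on, measured 6.07 and 5.94 in the MMTV-Cre arrays against 6.26 and 6.18 in the wild-type arrays, so that both MMTV-Cre arrays were lower, with a difference of −0.22 (−0.52 to 0.09). Rad50 and Nbn, subunits of the complex that senses the ends and activates ATM, differed by 0.06 and −0.18 with overlapping groups, and Nbn was lowest in MMTV-Cre replicate 2, at 5.22 against 5.60 to 5.69.

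The checkpoint kinases had differences of opposite sign and neither passed. Chek2, the main target of ATM, measured 2.65 and 2.45 in the MMTV-Cre arrays against 1.84 and 2.38 in the wild-type arrays. All 4 values lay below the median probe set, and the higher level of MMTV-Cre rested mostly on the low wild-type replicate 1: the difference was 0.44 (−0.07 to 0.95) with all arrays, 0.17 without it and 0.71 without wild-type replicate 2. Chek1, the main target of ATR, measured 3.95 and 3.59 in the MMTV-Cre arrays against 3.73 and 4.46 in the wild-type arrays. Its groups overlapped, and the difference of −0.33 (−0.99 to 0.34) became 0.04 without wild-type replicate 2 and −0.69 without wild-type replicate 1.

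Helicases, the resection nuclease Exo1, Parp1 and Fancd2 overlapped between groups in all 5 measured genes, with 1 difference above 0, 4 below and a median of −0.06. Such overlap was seen in 14871 of all 22180 genes. Fancd2, which is ubiquitinated at crosslinked DNA in the Fanconi anaemia pathway, measured 2.41 and 2.65 in the MMTV-Cre arrays against 2.80 and 2.63 in the wild-type arrays, a difference of −0.19 (−0.55 to 0.17). The RecQ helicases Blm and Wrn unwind recombination intermediates. Blm measured 3.74 and 3.42 in the MMTV-Cre arrays against 3.32 and 3.50 in the wild-type arrays, a difference of 0.17 (−0.23 to 0.56), which was 0.01 without MMTV-Cre replicate 1 and 0.33 without MMTV-Cre replicate 2. Wrn measured 4.52 and 4.22 against 4.36 and 4.53, a difference of −0.08 (−0.46 to 0.31). Exo1 and Parp1, the sensor that builds poly(ADP-ribose) at breaks, differed by −0.06 and −0.04. In this role the MMTV-Cre replicates were farther apart, with a median gap of 0.30 between them against 0.18 between the wild-type replicates.

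Spread within the wild-type group was larger than the group difference for 17 of the 30 genes, against 59.9% of all genes. The gap between the 2 wild-type arrays exceeded 0.5 in Chek1, Nhej1, Brca1, Xrcc4, Palb2 and Chek2. Wild-type replicate 2 was the highest of the 4 arrays in 11 of the 30 genes (25.2% of all genes), and MMTV-Cre replicate 2 was the lowest in 12 (23.8%). Over the 30 genes the mean level, each gene centred on its own mean, was 0.04 and −0.07 in the MMTV-Cre arrays and −0.02 and 0.05 in the wild-type arrays, so the replicates of each group lay on opposite sides of 0. In MMTV-Cre replicate 2 the mean of 9 fibroblast markers was 0.42 and that of 10 macrophage markers 0.26, against −0.19 to −0.11 and −0.23 to 0.01 in the other arrays. The part of these cells in the low values of that array was not tested.

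**Figure D3:**
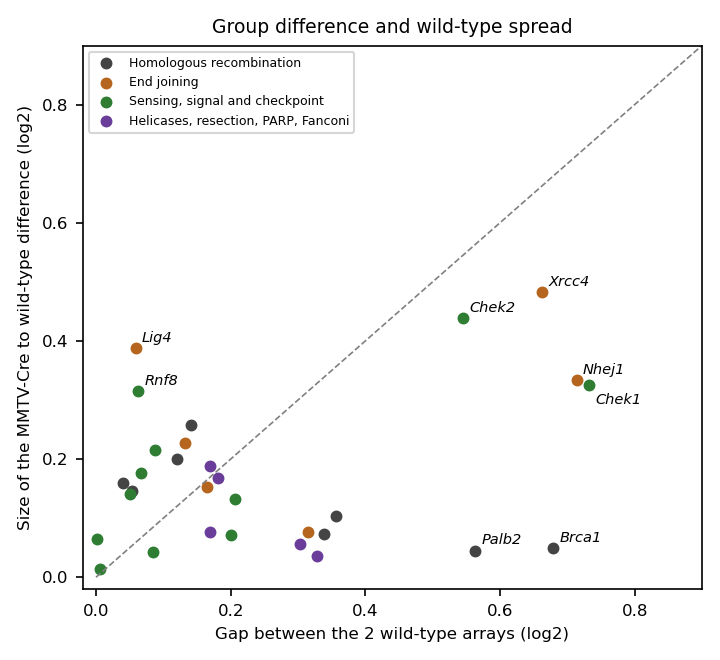
Size of the difference between groups against the gap between the 2 wild-type arrays, both in log2, for each of the 30 genes coloured by role; on the dashed line they are equal. Lig4 and Rnf8 lie high with gaps near 0.06, whereas Brca1, Chek1, Nhej1 and Xrcc4 have gaps over 0.6.

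Proliferation genes were set beside these values. The mean of 20 S phase and proliferation genes was −0.00 and −0.01 in the MMTV-Cre arrays against −0.08 and 0.09 in the wild-type arrays, so the wild-type arrays were the ones farthest apart. The sensing and checkpoint genes had the same order of the wild-type arrays (−0.08 and 0.07), but the MMTV-Cre arrays were as far apart (0.08 and −0.07). The part of proliferation in the spread of the repair genes was not tested. Among 17 targets of p53, the factor that ATM and CHEK2 activate, 12 lay above 0 (49.6% of all genes). Both MMTV-Cre arrays lay above both wild-type arrays in 7 (16.6% of all genes) and below them in 1 (16.3%). The wild-type gap was larger than the difference in 8 of the 17, and 0 reached an unadjusted p under 0.05. These shares were not tested. Without the array that carried the lymphocyte transcripts, 13 of the 30 repair genes had differences above 0 (49% of all genes) and 17 below. Their median was −0.08. The counts equal those with all arrays, but Bard1 and Parp1 had turned above 0 and Xrcc6 and Atr below. In that fit, which leaves wild-type replicate 2 as the lone wild-type array, Xrcc4, Nhej1 and Chek1 differed by −0.81, 0.69 and −0.69.

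**Figure D4:**
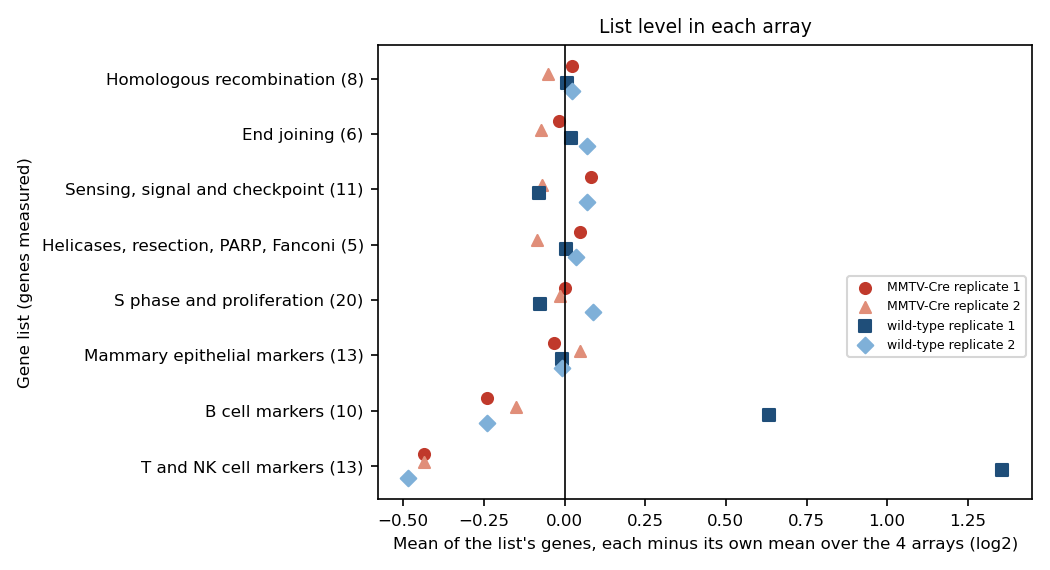
Mean log2 level of each gene list in each array after each gene was centred on its own mean over the 4 arrays; numbers in brackets are genes measured. The 4 repair roles stay between −0.09 and 0.08 in every array, while T and NK cell and B cell markers reach 1.36 and 0.63 in wild-type replicate 1.

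Other genes of the same pathways were examined as 4 further lists, with 88 of 95 genes measured. None passed at an adjusted p under 0.05 by limma, and 5 had an unadjusted p under 0.05, 2 higher and 3 lower in MMTV-Cre (2.26% and 2.3% of all genes). Among other recombination genes, 2 of 32 reached it. Rad51ap1, an accessory factor of strand exchange, measured 3.02 and 3.38 in the MMTV-Cre arrays against 2.66 and 2.76 in the wild-type arrays, a difference of 0.49 (0.09 to 0.89), or 0.31 without MMTV-Cre replicate 2. For the helicase gene Helq the MMTV-Cre arrays were the lower ones and the difference was −0.30 (−0.60 to −0.00). Of 14 other Fanconi anaemia genes 1 reached it, Fancf, a core complex subunit, with a difference of −0.45 (−0.86 to −0.03) and −0.29 without MMTV-Cre replicate 2. The core complex partner Faap100 differed by 0.37 (−0.07 to 0.81), or by 0.15 without MMTV-Cre replicate 1.

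Of 13 other end joining genes 1 reached an unadjusted p under 0.05, Aptx, which removes stalled adenylate groups left by DNA ligases, with a difference of −0.31 (−0.61 to −0.01). Tdp1, which clears blocked ends, differed by 0.33 (−0.00 to 0.66). Among 29 other signalling and checkpoint genes it was H2ax, the histone variant phosphorylated around breaks. H2ax measured 5.11 and 5.88 in the MMTV-Cre arrays against 4.88 and 4.77 in the wild-type arrays. Both MMTV-Cre arrays were higher, replicate 2 by far the more, and the difference of 0.66 (0.03 to 1.30, adjusted p = 0.963 by limma) did not pass and was 0.28 without that replicate. Abraxas1, a subunit of the BRCA1-A complex that reads ubiquitin at breaks, differed by −0.27 (−0.64 to 0.09), or by −0.13 without MMTV-Cre replicate 1. The median difference of that list was −0.09, and the medians of the other 3 lists lay between −0.00 and 0.01.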

How the data were processed

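Each of the 4 samples was hybridised to 1 Affymetrix array after cDNA synthesis from 50 ng of total RNA, per the labels' protocols. The authors used oligo and RMA, per the submitters' processing notes, and deposited 1 log2 value per probe set and array; their versions and genome build are not given in the sources used. The log2 scale was read from the values, with array medians from 2.83 to 2.86. Of 41345 probe sets, 23521 had 1 symbol in the platform annotation, 1814 several and 16010 none. A gene with several probe sets was represented by the brightest, and dim genes were kept. The genes and lists were chosen with earlier results of these data known.

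MMTV-Cre was set against wild-type in R 4.3.3 with limma 3.58.1 (lmFit and eBayes, two-sided, Benjamini-Hochberg over 22180 genes, threshold 0.05), a procedure tested on simulated data. No list was tested. The smallest two-sided exact permutation p that 2 samples against 2 allow is 0.333, and the number of arrays limits the precision. Values in every array are given for the 3 genes of each of 4 roles with the smallest p, for Brca1, Brca2, Xrcc5, Xrcc6, Prkdc, Atm, Chek1 and Chek2, and for any of the 30 genes under an unadjusted p of 0.05; of each further list the 2 genes with the smallest p are named. Other genes with values in every array were chosen after their values were seen. Promoter windows came from RefSeq (GRCm38.p6) by symbol and were searched for 10 motifs. The alternatives concerned the dim filter, probe set choice, normalization, prior variance, replicate block, threshold and left-out arrays.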

Additional observations from a re-analysis of the deposited data

How the results depend on the processing

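The count of break repair genes past the threshold was 0 in every alternative that kept the adjusted p, and 1 at an unadjusted p under 0.05, where 1012 of all genes passed. Over all genes the adjusted count was 0 with all 4 arrays and ran from 0 to 7 when arrays were left out in turn, with 7 when wild-type replicate 2 was missing. Such fits assume that the lone array of a group varies like the other group. The median difference of −0.05 ran from −0.082 to 0.049 when arrays were left out in turn, the upper end without MMTV-Cre replicate 2. Among the alternatives with all 4 arrays, only normalization could alter the differences of the 18 genes followed, and 0 of these changed direction. Without 1 array 6 did, a count not made over all genes. Their ranges were −0.39 to 0.29 for Brca1, −0.28 to 0.074 for Brca2, −0.69 to 0.040 for Chek1, −0.045 to 0.35 for Prkdc, −0.23 to 0.074 for Wrn and −0.080 to 0.24 for Xrcc6. Whether same-numbered samples were paired is not known from their numbers. The deviations of same-numbered arrays correlated at −0.02 across genes, which cannot settle it with 2 arrays per group. Taking the replicate number as a block cannot alter a difference in this balanced design, so the median difference stayed −0.05. With that block Lig4 had an unadjusted p of 0.0340 by limma, and no gene passed. Dim signal limits Brca1, Bard1, Palb2, Rad51c, Chek2 and Fancd2 most.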
